A study of Mus musculus with 16 samples.

Results

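The 8 genes Hmgcs1, Mvd, Idi1, Fdps, Fdft1, Sqle, Lss and Cyp51 encode enzymes of cholesterol synthesis and were taken by symbol from a table of 20072 mouse genes. Their RNA was followed in 16 libraries of sorted small-intestinal epithelial cells. Crypt and villus fractions came from untreated Tph1-CFP mice aged 8 to 16 weeks, in which cyan fluorescent protein (CFP) marks enterochromaffin cells, the serotonin-making endocrine cells of the gut. All 4 groups shared this genotype and none was treated. Crypt EC and villus EC were the CFP-positive cells of each fraction, and crypt epi and villus epi were the CFP-negative cells, which hold every other epithelial type and are therefore a mixture. Each group had 4 libraries of 5000 pooled cells. The labels number 4 replicates per group without saying whether each is a mouse, so that p-values measure the spread between these libraries. The labels also do not describe how the reporter was built. Levels are FPKM (fragments per kilobase of transcript, scaled per library), and differences are of mean log2(FPKM + 1) with their standard error (SE).

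Cholesterol is built from acetyl-CoA. Hmgcs1 makes HMG-CoA, the precursor of mevalonate. Mvd and Idi1 turn mevalonate products into the isoprenoid units that Fdps joins to farnesyl diphosphate, the branch point towards dolichol, ubiquinone and protein prenylation. Fdft1 joins farnesyl diphosphate to squalene, Sqle oxidises squalene, Lss closes the ring to lanosterol, and Cyp51 removes a methyl group from it. When sterols in the endoplasmic reticulum run low, Scap carries the transcription factor SREBP2, the product of Srebf2, to the Golgi for cleavage, and the released fragment turns these genes on. Enterocytes of the small intestine also take cholesterol from the lumen through Npc1l1.

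Promoter sequence is shown because the 8 genes are textbook targets of SREBP2, which works at short DNA elements beside the CCAAT box bound by NF-Y and the GC box bound by Sp1. RefSeq windows (build GRCm38.p6) were found for 5 of the 8 genes, and the 250 bases before each start were searched on both strands. Printed are the 3 windows with a CCAAT match outside annotated exons, 5′ to 3′ on the strand of the gene. Capitals mark CCAAT, or its complement ATTGG, and in Hmgcs1 also CACCCCAC, an element like the sterol response element. Hmgcs1 lies on the plus strand at chr13:119690101-119690350, Lss on the plus strand at chr10:76531355-76531587, where the last 17 bases of the window are exonic and left out, and Mvd on the minus strand at chr8:122443423-122443672.
Hmgcs1: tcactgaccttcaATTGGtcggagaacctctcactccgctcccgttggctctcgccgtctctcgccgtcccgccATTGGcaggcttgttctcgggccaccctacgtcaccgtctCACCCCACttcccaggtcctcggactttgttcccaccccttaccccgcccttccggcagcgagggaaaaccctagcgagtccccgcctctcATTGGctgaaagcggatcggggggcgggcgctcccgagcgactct
Lss: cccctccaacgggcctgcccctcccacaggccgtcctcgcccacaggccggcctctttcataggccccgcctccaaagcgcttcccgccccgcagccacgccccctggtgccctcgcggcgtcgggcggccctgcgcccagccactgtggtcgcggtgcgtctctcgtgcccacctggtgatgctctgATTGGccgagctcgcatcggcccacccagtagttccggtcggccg
Mvd: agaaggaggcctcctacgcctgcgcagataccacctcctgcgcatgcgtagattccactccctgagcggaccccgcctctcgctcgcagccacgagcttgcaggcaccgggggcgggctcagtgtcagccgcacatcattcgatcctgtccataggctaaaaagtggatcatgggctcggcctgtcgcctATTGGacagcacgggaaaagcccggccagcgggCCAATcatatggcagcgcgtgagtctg

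CCAAT was present in 5 of the 5 windows, those of Idi1 and Cyp51 included, against 33.8% of all 32851 RefSeq windows of the same length. GGGCGG, the GC box, was also in 5 of 5, against 32.7% of all windows. CACCCCAC was found in Hmgcs1 alone, at positions -136 to -129 from the start, against 2.58% of all windows. Hmgcs1 had 3 CCAAT matches, Mvd and Idi1 had 2 each, and Lss and Cyp51 had 1 each. No match overlapped a match of another motif. These matches describe letters in the windows and say nothing of binding in these cells.

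On mm10 the genes lie on 7 chromosomes: Hmgcs1 (ENSMUSG00000093930, chr13:119690379-119708260, plus strand), Idi1 (ENSMUSG00000058258, chr13:8885501-8892451, plus), Mvd (ENSMUSG00000006517, chr8:122433601-122443422, minus), Fdps (ENSMUSG00000059743, chr3:89093588-89101959, minus), Fdft1 (ENSMUSG00000021273, chr14:63145150-63179578, minus), Sqle (ENSMUSG00000022351, chr15:59315077-59331192, plus), Lss (ENSMUSG00000033105, chr10:76531588-76557138, plus) and Cyp51 (ENSMUSG00000001467, chr5:4081145-4104746, minus). Library preparation did not mark strand. Fdft1 overlaps the opposite-strand gene Ctsb and Cyp51 overlaps Akap9, so that reads from the shared bases could be assigned to either gene. Hmgcs1, Idi1, Lss and Mvd overlap opposite-strand gene models without a row in the table, Fdps overlaps such models on its own strand, and Sqle overlaps none.

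Library totals ran from 731415 to 1415120 FPKM, and read depth is unknown because only FPKM were used. The summed level of 8 enterochromaffin markers, Tph1 and Chga among them, was 84739 to 124741 FPKM in the EC libraries and 620 to 1976 in the epi libraries. That of 8 enterocyte markers was 99467 to 132744 in villus epi, 2532 to 8463 in crypt epi and 463 to 2702 in EC. Within its own group a library's mean correlation across genes, taken with the other 3 libraries, was 0.971 to 0.985, except in villus epi. There it was 0.923 to 0.926 in 3 libraries and 0.812 in replicate 2. The means of those 3 include their correlations with replicate 2, the same values that average 0.812. They therefore understate how alike those 3 libraries were to each other. Villus epi replicate 2 stood apart in other ways. Stromal and endothelial markers (6 genes) summed to 157 FPKM there against 4.44 to 5.78 in the other 3, lymphocyte and myeloid markers (8 genes) to 99.7 against 33.8 to 38.5, and goblet markers (6 genes) to 12920.5 against 25920 to 36774. For several results below the value without this library is given too.

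All 8 genes had their lowest level in villus epi. Between villus EC and villus epi, 8 of 8 were called higher in EC cells and 0 lower, where 40.6% of all 14089 genes tested were called higher and 21.6% lower. From crypt to villus the epi cells went down in 8 of 8 and up in 0 (35.4% and 19.6% of all genes), whereas the EC cells went up in 3 of 8 and down in 0 (10.3% and 16.2% of all genes). The difference between EC and epi cells was larger in the villus than in the crypt for 8 of 8 genes and smaller for 0, by an interaction test (26.9% and 16% of all genes). In the crypt the order was the other way, with 0 of 8 called higher in EC cells and 3 lower (23.2% and 20% of all genes). Because these are bulk samples, fewer cells of a type that makes these transcripts and less RNA per cell cannot be told apart.

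**Figure D1:**
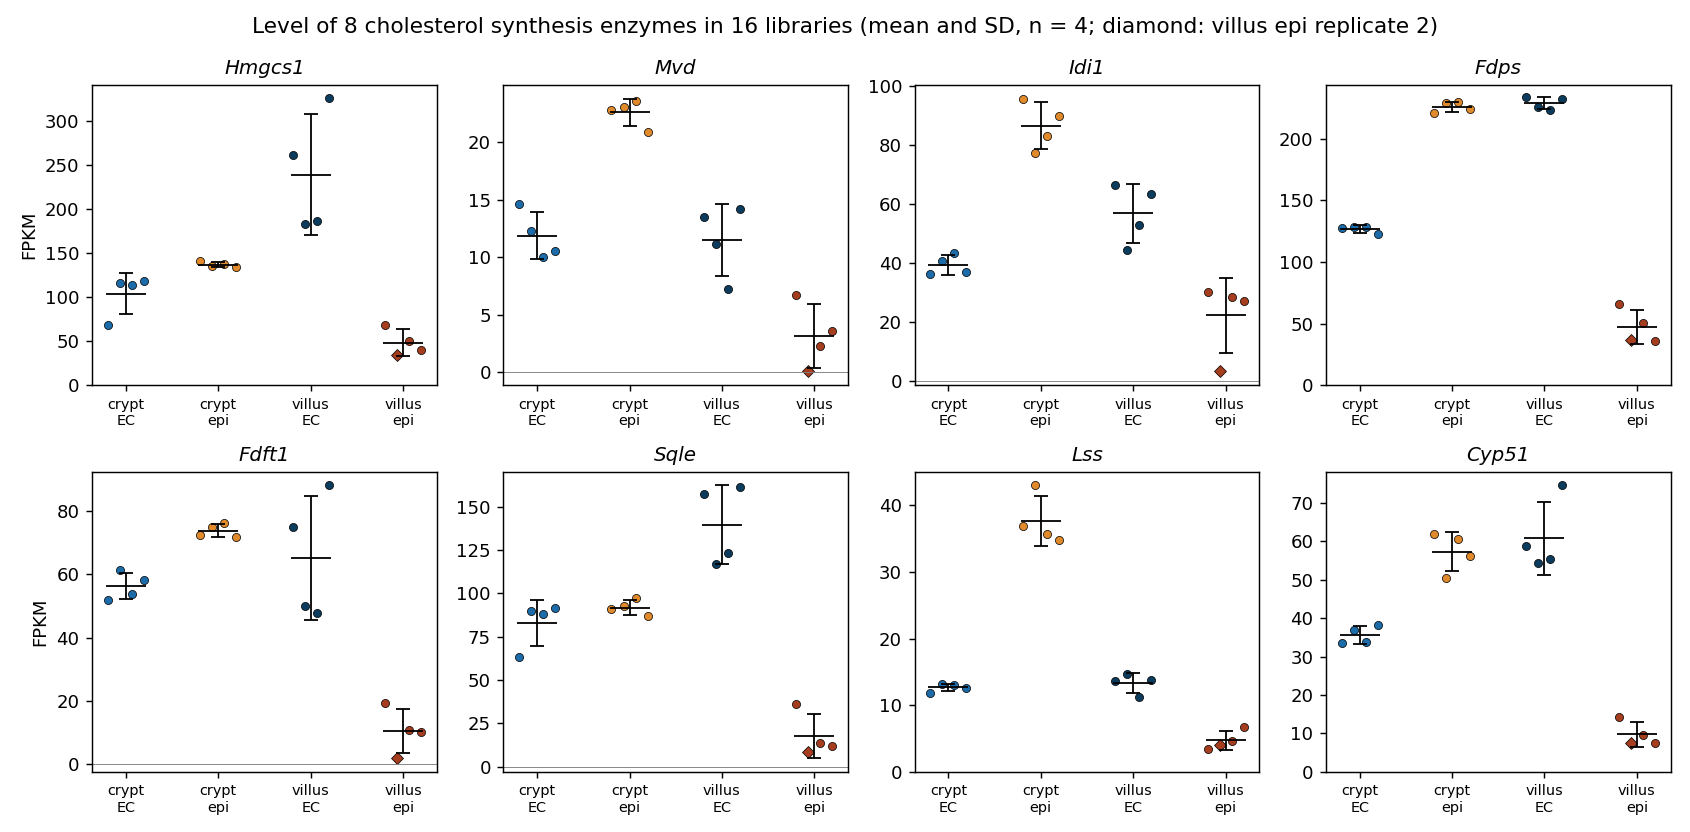
Level (FPKM, linear axis) of the 8 enzymes in the 16 libraries, in pathway order, with 4 points per group, the group mean as a long bar and the SD as whiskers; the diamond is villus epi replicate 2. In every panel the 4 villus epi points lie lowest, and the mean of Hmgcs1 runs from 48.1 in villus epi to 239 in villus EC.

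The summed level of the 8 enzymes shows the size of the contrast. It was 733 ± 12.1 FPKM (SD, n = 4) in crypt epi and 163 ± 62.1 in villus epi, and it was 470 ± 41.7 in crypt EC and 815 ± 134 in villus EC. As a share of the library total the 8 genes took 0.0672% in crypt epi, 0.0120% in villus epi, 0.0627% in crypt EC and 0.0946% in villus EC. The villus epi libraries ranged from 96.0 to 244 FPKM and the villus EC libraries from 701 to 974. Replicate 2 was the lowest of the villus epi libraries, and the other 3 were at 143, 170 and 244. Mitochondrially encoded transcripts took 5.26% to 14.9% of the total in the villus epi libraries against 2.23% to 4.32% in all others, and the part of this difference in the lower enzyme levels was not tested.

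Hmgcs1, the enzyme of the HMG-CoA step, had the highest mean of the 8 in villus EC and the widest spread there. It measured 260.4, 182, 186 and 326 FPKM in villus EC, 141, 135, 137 and 134 in crypt epi, 68.6, 115, 113 and 118 in crypt EC, and 68.2, 33.9, 50.4 and 39.9 in villus epi. The groups fell in that order without overlap, although crypt EC replicate 1 (68.6) and villus epi replicate 1 (68.2) almost met. Hmgcs1 was 2.29 ± 0.23 (SE) log2 units higher in villus EC than in villus epi (4.90-fold on the scale of FPKM + 1, limma adjusted p = 4.42e-07). It rose by 1.18 from crypt EC to villus EC (adjusted p = 0.00129) and fell by 1.54 from crypt epi to villus epi (adjusted p = 4.19e-05). In the crypt the EC value was 0.43 below the epi value without passing the test (adjusted p = 0.159).

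Mvd, which decarboxylates mevalonate diphosphate to the isoprenoid unit, had the lowest mean of the 8 in each group. Its crypt epi libraries held 22.8, 23.1, 23.6 and 20.9 FPKM. The EC libraries were lower and overlapped between sites, with 14.6, 12.2, 10.05 and 10.53 in crypt EC and 13.5, 11.1, 7.19 and 14.2 in villus EC. Villus epi held 6.66, 0.0578, 2.23 and 3.55, with replicate 2 at the bottom. Mvd fell by 2.84 ± 0.43 (SE) log2 units from crypt epi to villus epi (limma adjusted p = 3.68e-05). It was 1.88 higher in villus EC than in villus epi (adjusted p = 0.00124), and 1.33 without villus epi replicate 2 (adjusted p = 0.000188). Between crypt EC and villus EC the difference was -0.067 ± 0.43 (adjusted p = 0.947).

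Idi1, the isomerase of isoprenoid units, was highest in crypt epi, with 95.9, 77.5, 83.2 and 90.0 FPKM. Villus EC followed with 66.7, 44.7, 53.2 and 63.4, then crypt EC with 36.4, 40.9, 43.5 and 37.2. Villus epi held 30.3, 3.41, 28.6 and 27.2, so that replicate 2 lay far below the other 3. The 4 groups did not overlap. The villus difference between EC and epi was 1.64 ± 0.46 (SE) log2 units (limma adjusted p = 0.00565), and the fall from crypt epi to villus epi was -2.25 (adjusted p = 0.000611). Without villus epi replicate 2 these values were 0.95 and -1.56, both still called (adjusted p = 3.81e-06 and 1.63e-08).

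Fdps, the farnesyl diphosphate synthase, had the highest mean of the 8 in both crypt groups, per length of transcript. It measured 234, 226, 224 and 232 FPKM in villus EC and 221, 229, 230 and 224 in crypt epi, which overlapped. Crypt EC was lower, with 127, 129, 129 and 123, and villus epi lower still, with 65.9, 36.8, 50.4 and 36.1. Fdps was 2.30 ± 0.15 (SE) log2 units higher in villus EC than in villus epi (4.91-fold on the scale of FPKM + 1, limma adjusted p = 2.42e-09). It rose by 0.85 from crypt EC to villus EC (adjusted p = 0.000487) and fell by 2.28 from crypt epi to villus epi (adjusted p = 4.4e-09).

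Fdft1 is squalene synthase, the first step committed to sterols. Its levels were 72.4, 75.0, 76.3 and 72.0 FPKM in crypt epi and 52.0, 61.4, 53.8 and 58.2 in crypt EC. Villus EC spread over both, with 75.0, 50.1, 47.7 and 88.2. Villus epi was the lowest at 19.1, 1.81, 10.6 and 10.04. Fdft1 was 2.80 ± 0.42 (SE) log2 units higher in villus EC than in villus epi (limma adjusted p = 2.81e-05) and fell by 3.02 from crypt epi to villus epi (adjusted p = 1.64e-05). The villus difference was 2.23 without villus epi replicate 2. Crypt EC and villus EC differed by 0.16 ± 0.42 (adjusted p = 0.854).

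Sqle, the squalene epoxidase and a control point of the later pathway, showed the largest villus difference. Villus EC held 157, 117, 123 and 161 FPKM, above every other library. Crypt epi held 91.0, 92.5, 97.2 and 86.7, and crypt EC overlapped with it at 63.2, 89.7, 87.8 and 91.3. Villus epi held 36.4, 8.45, 13.9 and 11.9. The villus difference was 3.11 ± 0.30 (SE) log2 units (8.63-fold on the scale of FPKM + 1, limma adjusted p = 2.75e-07). The fall from crypt epi to villus epi was -2.52 (adjusted p = 3.83e-06), and the difference between villus EC and crypt EC was 0.74 (adjusted p = 0.0881). That last value was called without villus epi replicate 1 (adjusted p = 0.0035) or without replicate 2 (0.0229).

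Lss, the lanosterol synthase, had the largest crypt difference of the 8. Crypt epi held 37.0, 43.1, 35.7 and 34.8 FPKM and stood above all other libraries. The EC groups overlapped, with 11.9, 13.1, 13.02 and 12.6 in the crypt and 13.6, 14.7, 11.2 and 13.8 in the villus, and villus epi held 3.40, 4.09, 4.65 and 6.71. Crypt EC minus crypt epi was -1.50 ± 0.16 (SE) log2 units (limma adjusted p = 2.01e-06). It was 1.35 higher in villus EC than in villus epi (2.55-fold on the scale of FPKM + 1, adjusted p = 2.71e-06). The sites differed by 0.061 ± 0.16 in EC cells (adjusted p = 0.858) and by -2.78 in epi cells (adjusted p = 1.31e-09).

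Cyp51, the lanosterol demethylase, followed Fdps closely. It measured 58.8, 54.3, 55.3 and 74.8 FPKM in villus EC and 62.0, 50.6, 60.7 and 56.1 in crypt epi, which overlapped. Crypt EC held 33.6, 36.8, 33.8 and 38.2, and villus epi 14.3, 7.48, 9.64 and 7.53. The villus difference between EC and epi was 2.56 ± 0.17 (SE) log2 units (limma adjusted p = 4.37e-09). Cyp51 rose by 0.75 from crypt EC to villus EC (adjusted p = 0.00454) and fell by 2.48 from crypt epi to villus epi (adjusted p = 9.74e-09).

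**Figure D2:**
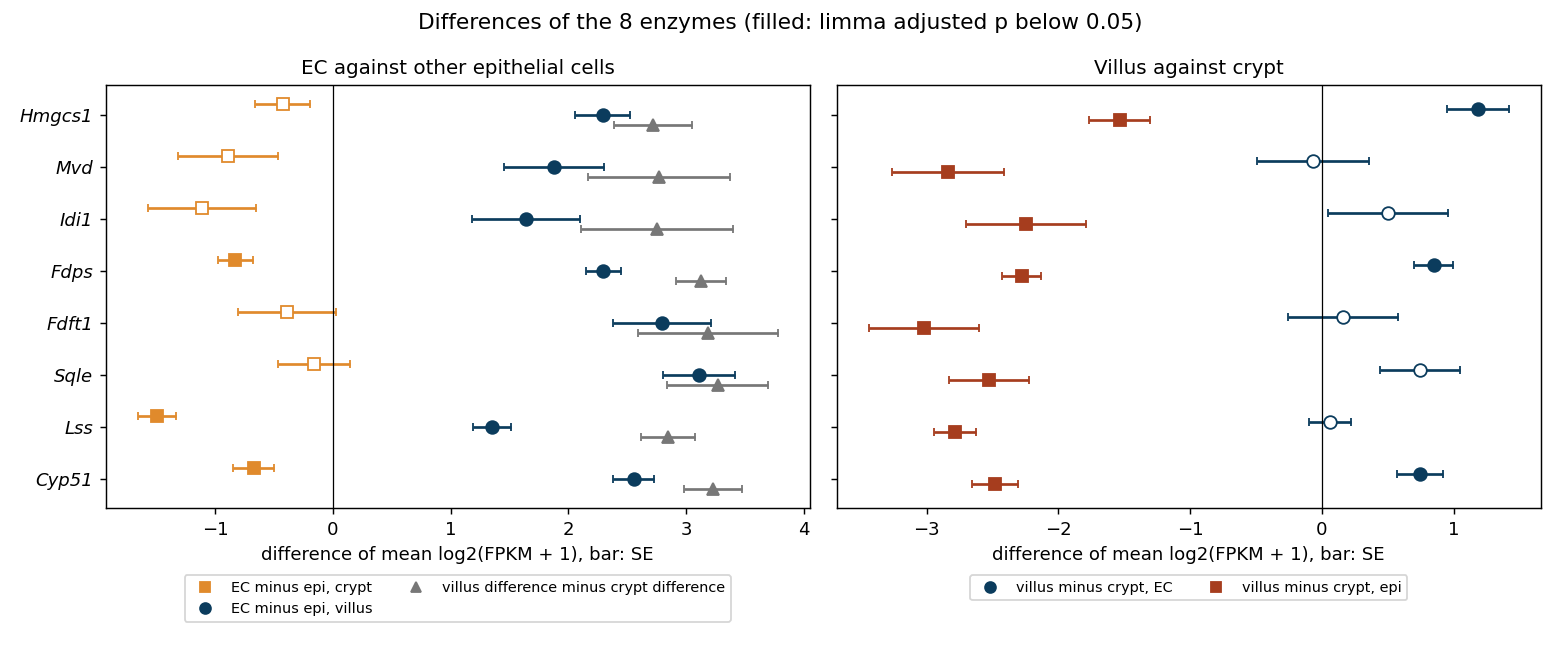
Differences of mean log2(FPKM + 1) for the 8 enzymes with SE bars, EC minus epi at each site and the difference of both (left) and villus minus crypt in each cell type (right); filled symbols passed the limma test at an adjusted p below 0.05. All 8 villus values lie right of 0 and all 8 epi values of villus minus crypt lie left of it, while the EC values of villus minus crypt run from -0.067 (Mvd) to 1.18 (Hmgcs1).

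Per gene, the villus difference between EC and epi cells had a median of 2.29 log2 units over the 8 enzymes, where the median over all 14089 genes was 0.33. The range was 1.35 (Lss) to 3.11 (Sqle). The 8 enzymes were called in all 16 fits that left out 1 library. The interaction, which is the villus difference minus the crypt difference, had a median of 2.99 against 0.21 over all genes. It ran from 2.72 ± 0.33 (SE) for Hmgcs1 (limma adjusted p = 1e-05) to 3.27 ± 0.43 for Sqle (adjusted p = 2.15e-05). Idi1, at 2.75 (adjusted p = 0.00293), dropped to 2.06 without villus epi replicate 2. Over the alternatives that kept all libraries, Mvd varied most, from 1.78 to 3.63. Enterocyte marker sums, given above, also set villus epi apart from the other 3 groups, and their part in the enzyme levels was not tested.

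In the crypt the comparison asked how EC cells differed from the other crypt cells. Lss (-1.50), Fdps (-0.83 ± 0.15 SE, limma adjusted p = 0.000297) and Cyp51 (-0.67 ± 0.17, adjusted p = 0.0054) fell below crypt epi. Idi1 (-1.11, adjusted p = 0.0622), Mvd (-0.89, adjusted p = 0.108), Hmgcs1 and Fdft1 (-0.39, adjusted p = 0.493) did not pass. Sqle, at -0.16 (adjusted p = 0.714), did not pass either. Without villus epi replicate 2, which is in neither group but enters the shared spread, Idi1 and Mvd were called as well (adjusted p = 5.26e-07 and 0.0036). That made 5 of 8, where 30.8% of all genes were called lower in the same fit. In a fit of the 2 crypt groups alone, 7 of 8 were called lower, as were 33.2% of all genes.

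The crypt result also depended on scaling. With each library rescaled to the same sum, Lss remained called, Fdps (-0.29, adjusted p = 0.0948) and Cyp51 (-0.14, adjusted p = 0.491) lost the call, and Hmgcs1 (0.11), Fdft1 (0.15) and Sqle (0.38) turned above 0 without a call. That rescaling moved the median over all genes from 0.051 to 0.51 in the crypt and from 0.33 to 0.80 in the villus, and from -0.052 to -0.23 and from -0.19 to -0.38 in the EC and epi comparisons of sites. Over all genes the crypt calls went from 3264 higher and 2824 lower to 6109 and 1433, and the villus calls from 5724 and 3046 to 7947 and 1901. Villus against crypt went from 1454 and 2282 to 1139 and 3503 in EC cells, and from 2761 and 4994 to 1977 and 5974 in epi cells. Cell cycle genes (12) summed to 799 to 989 FPKM in crypt epi, 227 to 334 in crypt EC, 50.8 to 63.5 in villus EC and 32.9 to 67.4 in villus epi. Paneth cell markers (6) summed to 180370 to 210028 in crypt epi and 5874 to 8941 in crypt EC. The part of these cells in the crypt values was not tested.

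Between villus EC and crypt EC the 8 enzymes split. Hmgcs1, Fdps and Cyp51 rose, as given above. Sqle and Idi1 (0.50 ± 0.46 SE, limma adjusted p = 0.501) were higher in the villus on average and did not pass. Fdft1, Lss and Mvd did not pass either. Idi1 and Sqle were called without villus epi replicate 2 (adjusted p = 0.00188 for Idi1), which made 5 of 8, and the same number was called in a fit of the EC groups alone. Of all genes 19.3% were called higher in the first of these fits and 20.8% in the other. Markers of stem cells (5 genes) summed to 943 to 1484 FPKM in crypt EC and 4.76 to 5.93 in villus EC, and the part of this difference in site was not tested.

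The 8 levels moved together across the 16 libraries, which share 4 groups and their scaling, so the following correlations are descriptions. Pearson's r of log2(FPKM + 1) over 16 libraries ranged over the 28 pairs from 0.589 (Hmgcs1 with Lss) to 0.989 (Fdps with Cyp51). Each gene's r with the mean of the other 7 was highest for Cyp51 (0.968), Fdft1 (0.966) and Fdps (0.963) and lowest for Lss (0.789). Hmgcs1 had 0.862 and Idi1 0.877. Among genes outside the 8, 9 of the 10 most like their mean z score were Ivns1abp (r = 0.984), Ttc39a (0.979), Galnt4 (0.974), Mink1 (0.972), Galnt3 (0.972), H13 (0.970), Slc1a5 (0.970), Naa25 (0.968) and Atp2a3 (0.967). Ivns1abp, for example, held 454 ± 18.9 FPKM (SD, n = 4) in villus EC and 73.1 ± 30.4 in villus epi. Slc1a5, a glutamine transporter, held 115 ± 8.51 and 6.54 ± 3.08. Srebf2 had r = 0.962.

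The other enzymes of the pathway were less uniform. Of 14 others listed for the pathway, 7 were called higher and 4 lower in EC than in epi cells of the villus (median 0.46). Over all genes the shares were 40.6% and 21.6%. From crypt epi to villus epi 8 fell and 3 rose (median -0.61), against 35.4% and 19.6% of all genes. The interaction was called higher in 7 and lower in 0 (26.9% and 16% of all genes). Its median was 0.80, where the 8 enzymes had 2.99. In the crypt 9 were lower and 1 higher in EC cells (median -0.83), against 20% and 23.2% of all genes. Between the EC groups 2 rose and 1 fell (median 0.25), against 10.3% and 16.2% of all genes. Without villus epi replicate 2, Sc5d (0.79), Dhcr7 (0.73), Msmo1 (0.45) and Ebp (0.35) were also called higher in villus EC than in crypt EC, and Acat2 (-0.33) and Erg28 (-0.28) lower. The interaction values were 2.89 for Lbr, a sterol reductase and nuclear envelope protein, 1.90 for Dhcr7, a reductase of the last steps, 1.78 for Acat2, which supplies acetoacetyl-CoA, and 1.56 for Mvk, mevalonate kinase. Dhcr7 was at 1.38 without villus epi replicate 2. Pmvk (0.98), Erg28 (0.66) and Nsdhl (0.53) completed the 7. The last pair depended on the settings: with median-ratio scaling neither was called (adjusted p = 0.169 for Erg28 and 0.145 for Nsdhl), and Erg28 lost its call in 10 and Nsdhl in 8 of the 16 fits that left out 1 library.

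Some enzymes late in the pathway were lower in villus EC. Sc5d, a sterol desaturase, differed from villus epi by -1.56 (limma adjusted p = 0.000361), or by -1.10 without villus epi replicate 2, and Ebp (-0.64) and Hsd17b7 (-0.44) passed the test too. Ebp lost its call with libraries rescaled to the same sum (-0.010, adjusted p = 0.956). Hsd17b7 lost it in 3 of the 16 fits that left out 1 library (adjusted p up to 0.0599). Hsd17b7 (0.13) turned above 0 with libraries rescaled to the same sum, as did Nsdhl (-0.21 to 0.40) and Erg28 (-0.21 to 0.42). Tm7sf2, a sterol reductase, rose from crypt to villus in EC cells (0.90) and in epi cells (0.58).

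**Figure D3:**
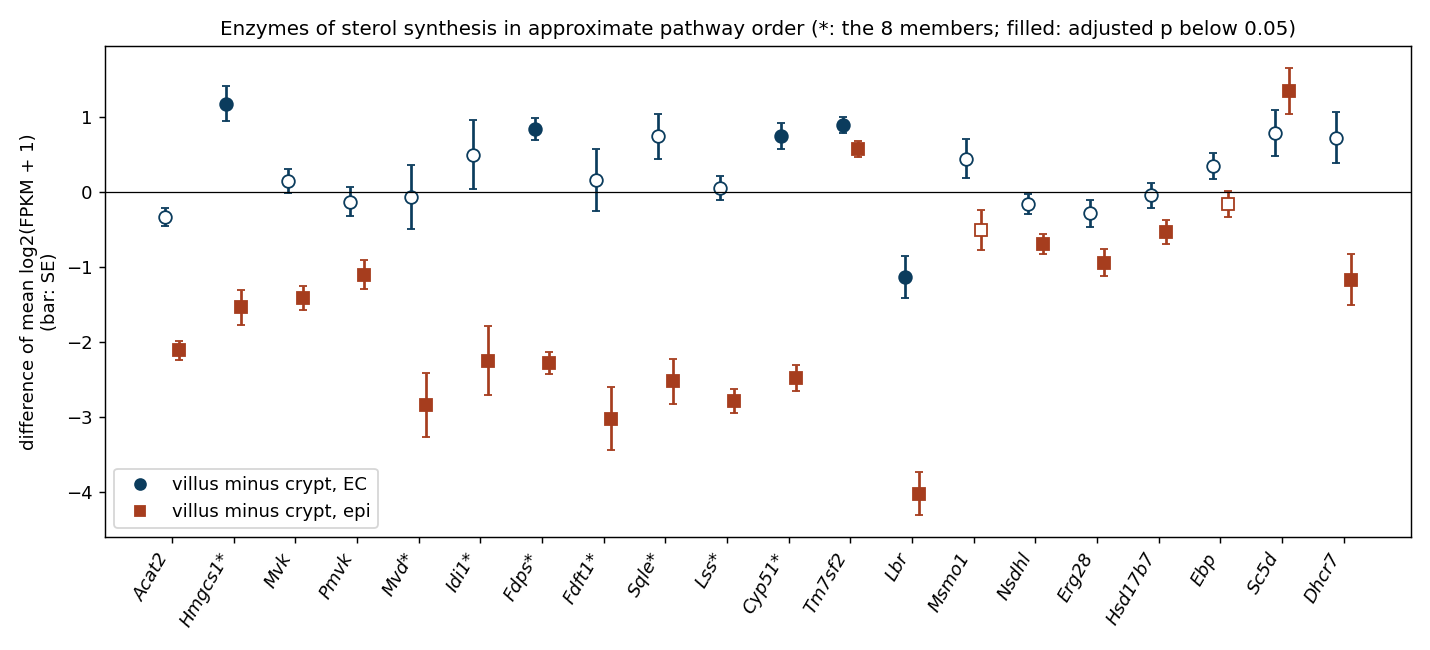
Villus minus crypt difference of mean log2(FPKM + 1), with SE bars, for 20 enzymes between acetyl-CoA and cholesterol in EC cells (circles) and epi cells (squares); stars mark the 8 enzymes, and filled symbols passed the limma test. The 8 starred squares lie between -1.54 and -3.02, whereas those of Sc5d (1.35) and Tm7sf2 (0.58) lie above 0.

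Srebf2, which encodes SREBP2, had groups in the same order as Hmgcs1. It held 56.3, 64.1, 58.9 and 55.8 FPKM in villus EC, 52.4, 52.1, 48.4 and 45.1 in crypt epi, 42.6, 42.2, 35.8 and 36.6 in crypt EC, and 15.1, 2.72, 13.1 and 10.9 in villus epi. The groups did not overlap. In the crypt, however, Srebf2 was not called lower in EC cells by limma. Without villus epi replicate 2 it was called there (-0.33, adjusted p = 0.00863). With libraries rescaled to the same sum it turned above 0 (0.20, adjusted p = 0.571). Its villus difference was 2.58 ± 0.33 (SE) log2 units (limma adjusted p = 4.85e-06) and its interaction 2.90 (adjusted p = 0.000122). Of 12 regulators of the SREBP pathway, 5 were called higher and 2 lower in EC than in epi cells of the villus (median 0.47), shares close to the 40.6% and 21.6% of all genes. From crypt epi to villus epi 4 fell and 2 rose (median -0.67), close to the 35.4% and 19.6% of all genes. The interaction was called higher in 3 and lower in 1 (median 0.76), not above the 26.9% and 16% of all genes. Scap, the escort of SREBP2, was 1.81 higher in villus EC (adjusted p = 5.52e-09), and Rnf145, a ubiquitin ligase of the pathway, was 5.72 higher (adjusted p = 1.05e-10).

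Insig1 and Insig2, which hold Scap in the endoplasmic reticulum when sterols are ample, were high in different groups. Insig2 was lower in EC cells of the villus, with a difference of -1.24 from villus epi (limma adjusted p = 9.18e-07), and rose by 1.72 from crypt epi to villus epi (adjusted p = 3.61e-08). Insig1, itself an SREBP target, held 83.6 to 121 FPKM in villus EC, 72.6 to 89.0 in crypt epi and 35.7 to 66.4 in crypt EC. In villus epi it held 44.7, 163.9, 28.0 and 30.1, with replicate 2 highest. Its villus difference was 1.00 ± 0.41 (SE, adjusted p = 0.0457), which lost the call in 14 of the 16 fits that left out 1 library (adjusted p up to 0.145) and was 1.57 without villus epi replicate 2 (adjusted p = 5.66e-06).

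**Figure D4:**
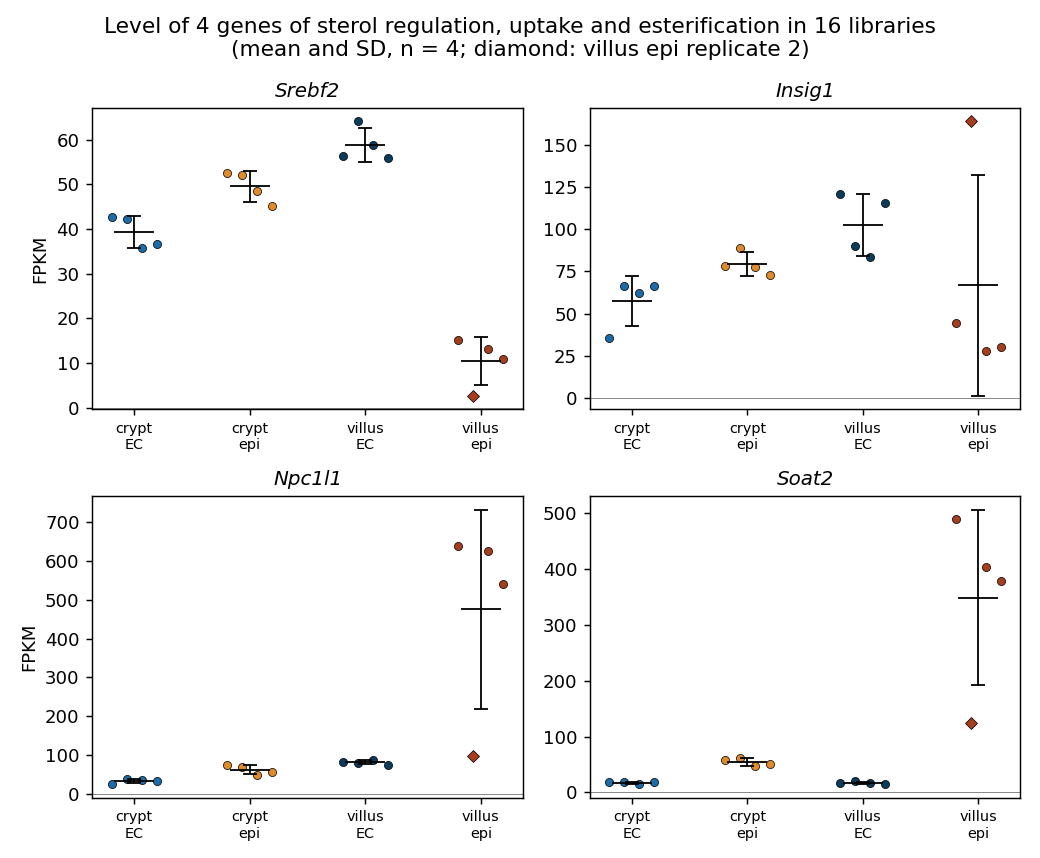
Level (FPKM, linear axis) of Srebf2, Insig1, Npc1l1 and Soat2 in the 16 libraries, with 4 points per group, the mean as a long bar and the SD as whiskers; the diamond is villus epi replicate 2. Srebf2 is lowest in villus epi, Npc1l1 and Soat2 are highest there, and the diamond lies far from the other villus epi points for Insig1 (163.9), Npc1l1 (97.2) and Soat2 (124).

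Npc1l1, the luminal cholesterol transporter, was at 74.8 to 87.0 in villus EC and at 640.1, 97.2, 626 and 540.3 in villus epi, a difference of -2.22 ± 0.44 log2 units (SE, limma adjusted p = 0.00042), and of -2.87 without villus epi replicate 2 (adjusted p = 6.88e-11). Of 15 genes of uptake and intracellular transport, 4 were called higher and 8 lower in EC than in epi cells of the villus (median -0.77). Over all genes the shares were 40.6% and 21.6%. From crypt epi to villus epi 7 rose and 4 fell (median 0.84), against 19.6% and 35.4% of all genes.

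Genes of esterification and efflux lay mostly opposite to the 8 enzymes. Of 12 tested, 9 were called lower and 2 higher in EC than in epi cells of the villus (median -2.44). Over all genes the shares were 21.6% and 40.6%. From crypt epi to villus epi 8 rose and 1 fell (median 1.63), against 19.6% and 35.4% of all genes. Between the EC groups 0 were called by limma (median -0.082), where 10.3% of all genes were called higher and 16.2% lower. Without villus epi replicate 2, Mttp (-0.63, adjusted p = 0.014) and Soat1 (-0.41, adjusted p = 0.0145) were lower in villus EC than in crypt EC, as was Soat1 with libraries rescaled to the same sum (-0.61, adjusted p = 0.00646). Soat2, the enterocyte enzyme that esterifies cholesterol, was at 15.5 to 20.4 FPKM in villus EC and at 489, 124, 404 and 379 in villus epi, a difference of -4.09 (limma adjusted p = 1.33e-08). Mttp (-5.94), which loads lipid onto lipoproteins, and the sterol exporter gene Abcg8 (-5.30) differed more. Soat1, the widely expressed relative of Soat2, went the other way, 2.96 higher in villus EC (adjusted p = 3.66e-10). The enterocyte marker sums moved with these genes, and their part was not tested.

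Fatty acid synthesis, which the related factor SREBP1 serves, moved with the 8 enzymes in the epi cells. Srebf1, the gene of SREBP1, did not show this fall. It held 61.7, 30.0, 58.5 and 60.3 FPKM in villus epi, with a mean of 31.2 in crypt epi. Its means were 30.3 in crypt EC and 34.5 in villus EC. Of 12 genes tested, 9 fell and 1 rose from crypt epi to villus epi (median -2.03), against 35.4% and 19.6% of all genes. In the villus 7 were called higher and 2 lower in EC than in epi cells (median 1.46). Over all genes the shares there were 40.6% and 21.6%. The interaction was higher in 8 and lower in 1 (median 1.46), against 26.9% and 16% of all genes. Fasn, fatty acid synthase, was 3.56 higher in villus EC than in villus epi (limma adjusted p = 1.02e-10), and the desaturase genes Fads1 and Fads2 were 4.44 and 4.18 higher. In EC cells 3 fell from crypt to villus and 0 rose, against 16.2% and 10.3% of all genes. Among the 3 were Acly (-2.22, adjusted p = 3.27e-06), which supplies acetyl-CoA, and Fads2 (-0.69, adjusted p = 0.0292). Fads2 was not called with median-ratio scaling (adjusted p = 0.0759), with a pseudocount of 0.1 (0.115) or in 5 of the 16 fits that left out 1 library (up to 0.105). Hmgcs1, Fdps and Cyp51 rose in that comparison. Of 13 genes of the isoprenoid side branches, 6 were called higher and 1 lower in EC than in epi cells of the villus (median 0.45), where 40.6% and 21.6% of all genes were and their median was 0.33. Dhdds, of dolichol synthesis, was 1.22 higher (adjusted p = 2.05e-06), and Coq2, of ubiquinone synthesis, was 1.52 higher (adjusted p = 0.0255) but 1.07 and not called without villus epi replicate 2 (adjusted p = 0.067).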

How the data were processed

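RNA of sorted cells was extracted with a column kit, copied to full-length cDNA, amplified and cut by transposase, per the labels' protocols. The authors deposited 1 table of FPKM per gene and library, and the submitters' processing notes name bcl2fastq 2.20, kallisto, sleuth and mm10. How libraries were scaled is not given in the sources used here. Values were used as log2(FPKM + 1). Genes with at least 1 FPKM in at least 4 of 16 libraries were tested (14089 of 20072, all 8 enzymes among them) with limma 3.58.1 in R 4.3.3: 4 group means in 1 fit, a variance trend, two-sided tests, Benjamini-Hochberg adjustment over all genes of each of 5 contrasts, and calls at adjusted p below 0.05. Fold changes on this scale understate those of low genes. The method was tested on simulated data.

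The enzymes and gene lists were chosen with earlier results of these data known. Named were the 8 enzymes, the other sterol enzymes, Srebf2, Insig1, Npc1l1 and Soat2 whatever their values, up to 4 called genes of each other list and contrast by size, and the 10 genes most correlated with the enzymes' mean. Only some of these are described, a selection made with their values known. A few genes are not reported here. Ch25h was not analysed here. Alternatives changed the pseudocount, filter, scaling, variance model, samples in the fit, libraries left out and blocks. Figures used matplotlib 3.10.9 in Python 3.11.15. Gene positions came from GENCODE M21.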

Additional observations from a re-analysis of the deposited data

Results flagged for a closer look

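In 3 of 32 sets of 4 libraries (8 enzymes in 4 groups), a single library lay far from the other 3, by the gap to its neighbour relative to the range of the set. They were Hmgcs1 in crypt EC replicate 1, at 68.6 FPKM with the others at 113 to 118, Sqle in the same library, at 63.2 with the others at 87.8 to 91.3, and Idi1 in villus epi replicate 2, at 3.41 with the others at 27.2 to 30.3. Chance alone gives such a gap in about 1 in 20 sets of unrelated values, a rate not computed from these data. The 8 enzymes share the same libraries, so the 32 sets are not independent and the count of 3 tests nothing. Crypt EC replicate 1 also stood apart in other genes. Stem cell markers summed to 1484 FPKM there against 943 to 1039 in the other crypt EC libraries, and enterocyte markers to 463 against 1125 to 1402. Its mean correlation within its group was 0.971, with the others at 0.982 to 0.983.

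The difference between EC and other epithelial cells was not the same at the crypt and the villus for any of the 8 enzymes, by the limma interaction test over all genes. The villus difference exceeded the crypt difference by 2.72 log2 units for Hmgcs1, 3.27 for Sqle, 3.18 for Fdft1, 3.13 for Fdps, 2.75 for Idi1, 2.84 for Lss, 3.23 for Cyp51 and 2.77 for Mvd, with adjusted p between 3.52e-08 and 0.00293.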

How the results depend on the processing

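The counts of 8 enzymes called in the villus, from crypt epi to villus epi and in the interaction were 8 under every alternative run. The count lower in crypt EC than in crypt epi, 3, was 5 with a pseudocount of 5, 1 with values rescaled to the same sum and 7 with only the groups of the contrast, and it ranged from 3 to 5 when 1 library was left out, with 5 without villus epi replicate 2. The count higher in villus EC than in crypt EC, also 3, was 5 with only the groups of the contrast and ranged from 3 to 5 when 1 library was left out. Over all genes, calls between the EC groups were 2748 higher and 3759 lower of 13190 with only those groups. Without villus epi replicate 2 they were 2694 and 3848 of 13936. Lower calls in the crypt were 4334 of 13063 with only the crypt groups and 4291 of 13936 without villus epi replicate 2. They were 2967 of 14089 with a pseudocount of 5 and 1433 of 14305 with values rescaled to the same sum. Rescaling libraries to the same sum turned H13 (0.20) and Naa25 (0.054) above 0 in the crypt, and Nsdhl (0.40), Hsd17b7 (0.13) and Erg28 (0.42) in the villus. The cause was not tested. With the replicate number of the titles as a replicate block, the counts stayed at 3, 8, 3, 8 and 8. The order is lower in crypt EC, higher in villus EC than in villus epi, higher in villus EC than in crypt EC, lower in villus epi, and interaction. Of all 14089 genes, the same calls in that fit were 2703, 5626, 1351, 4897 and 3650. Deviations of same-numbered libraries from their group means correlated with r from -0.268 to 0.170 over 24 pairs, 4 of them above 0.1. Such values cannot decide whether the numbers pair the libraries, and the labels do not say whether a number marks a mouse. A block on the library numbers gave a consensus correlation of -0.0526 and the same counts. Depth is unknown, so no counting error or detection limit is given for levels near 0, such as Mvd in villus epi.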

Other observations

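Genes of lysosomal cholesterol release did not move together from crypt epi to villus epi. Lipa, the lysosomal acid lipase, rose by 3.59 ± 0.23 (SE) log2 units from crypt epi to villus epi (limma adjusted p = 3.98e-09), and Npc1, which exports cholesterol from lysosomes, rose by 1.97 ± 0.19 (adjusted p = 3.53e-07). Npc2, the partner that hands cholesterol to Npc1, fell by 0.70 ± 0.12 (adjusted p = 0.000182). In EC cells the same comparison gave 0.13 for Lipa (adjusted p = 0.778), 0.35 for Npc1 (adjusted p = 0.207) and -0.27 for Npc2 (adjusted p = 0.129). The interaction was called for Lipa and Npc1 (-3.47 and -1.62) and not for Npc2 (0.43, adjusted p = 0.0629). Scarb1, a lipoprotein receptor, was higher in EC than in epi cells at both sites, by 3.33 ± 0.40 in the crypt and 2.23 ± 0.40 in the villus (adjusted p = 6.49e-06 and 0.000169). Without villus epi replicate 2 the villus value was 1.67 (limma adjusted p = 4.96e-07). The interaction of Scarb1 was called only in that case (-1.66, adjusted p = 2.89e-05), when compared with the fit of all libraries.

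The 9 genes named above as most like the 8 enzymes had an interaction above 0, from 1.62 ± 0.17 (SE) for H13, a signal peptide peptidase, to 5.25 ± 0.61 (SE) for Atp2a3, a calcium pump of the endoplasmic reticulum (limma adjusted p = 6.91e-06). They were picked by their likeness, so these values describe them and test nothing.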
